A study of Rattus norvegicus with 4 samples.

Results

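In neonatal rat ventricular myocytes, 84 features were at least 2-fold higher with phenylephrine both under a control siRNA and under a Chaer-specific siRNA. The 84 were chosen by their own values, out of 26406 listed features, of which 12226 averaged 1 RPKM or more over the 4 libraries (RPKM counts reads per kilobase of a gene model and corrects for library depth). A member had to reach a log2 ratio of (RPKM + 1) of at least 1 with phenylephrine under each siRNA, and a mean of its 2 Chaer siRNA log2 ratios between -1 and 1, and 3 features that met this were left out by identifier. The myocytes came from hearts of Sprague Dawley rats at 2 days of age and were kept in primary culture. They were transfected for 6 h with the control siRNA (siNeg) or the Chaer siRNA (siChaer), and RNA was collected after 48 h without phenylephrine or with it at 50 µM. Each of the 4 groups (siNeg, siChaer, siNeg with phenylephrine and siChaer with phenylephrine) was 1 library, so no value has an error from replicate cultures and no difference was tested. All 4 groups share the transfection, and the labels name no group without an siRNA and say nothing of separate cultures. Intervals are 95% counting intervals and cover counting error only.

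Phenylephrine is an agonist of α1-adrenergic receptors. In myocytes these receptors act through Gq and phospholipase C, which raises calcium and activates protein kinase C, and downstream kinases and calcineurin then act on transcription factors such as MEF2, GATA4 and NFAT. The cells grow without dividing and turn on genes of the fetal heart, which makes this culture a standard model of cardiac hypertrophy. The heart's long noncoding RNA Chaer has been linked to this growth through the Polycomb repressive complex PRC2, and the design asks how its siRNA alters the phenylephrine response.

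The members are known only by Ensembl gene identifiers. The reference table used here pairs 0 of the 84 with a symbol, so their functions, chromosomes and sequences are not given. The cell type and the lowering of Chaer were likewise not checked against marker genes. The leading 2 members are given by identifier. All members are numbered from 1 to 84 by the smaller of their 2 phenylephrine log2 ratios, with member 1 the highest, and are described by level and by the length of the gene model behind the RPKM. The libraries held 33944988 to 39155363 reads in listed features.

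In these libraries the 84 members together went from under 1% to nearly 3% of the reads in listed features. They held 0.798% of listed reads with control siRNA and 0.913% with Chaer siRNA. With phenylephrine they held 2.56% and 2.80%. Without the 4 members of highest level, the shares were 0.442% and 0.475% untreated and 1.21% and 1.32% treated. The rule makes any such sum higher with treatment, so these shares give only its size. In RNA of a whole culture, a change in the cells' composition and a change of RNA per cell cannot be told apart.

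Member 1, ENSRNOG00000000700, had the highest smaller ratio and a gene model of 2167 bp. Its level was 5.68 RPKM with control siRNA, 4.04 RPKM with Chaer siRNA, 50.0 RPKM with control siRNA and phenylephrine, and 30.0 RPKM with Chaer siRNA and phenylephrine. Both treated libraries were thus far above both untreated ones, and Chaer siRNA gave the lower level in each condition. The fold of RPKM with phenylephrine was 8.81 (7.99 to 9.73) under control siRNA and 7.42 (6.64 to 8.31) under Chaer siRNA. Member 2, ENSRNOG00000020097, with a gene model of 1398 bp, had levels of 6.86, 4.29, 38.5 and 27.8 RPKM in the same order of libraries. It too was lower with Chaer siRNA in each condition. Its fold, unlike that of member 1, was the larger under Chaer siRNA in value, at 5.61 (5.01 to 6.30) and 6.49 (5.66 to 7.46), but these intervals overlap.

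Member 5 had the same order of the 4 libraries as member 1, with 8.82 RPKM (control siRNA), 5.77 RPKM (Chaer siRNA), 49.9 RPKM (control siRNA, phenylephrine) and 29.4 RPKM (Chaer siRNA, phenylephrine). Its folds with phenylephrine were 5.66 (5.10 to 6.31) and 5.10 (4.50 to 5.80). Members 4 and 7 had the opposite order of siRNAs, with Chaer siRNA the higher in value in each condition. Member 4 went from 9.15 to 46.7 RPKM with control siRNA and from 10.6 to 55.6 RPKM with Chaer siRNA, and its folds of 5.10 (4.63 to 5.63) and 5.22 (4.79 to 5.70) lay within each other's intervals. Member 7 went from 5.32 to 25.7 RPKM and from 6.11 to 36.8 RPKM, with folds of 4.83 (4.21 to 5.57) and 6.03 (5.34 to 6.82).

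Members 3 and 8 combined a large ratio with a high level. Member 3, with a gene model of 2269 bp, went from 195 to 1279 RPKM with control siRNA and from 247 to 1234 RPKM with Chaer siRNA. The treated levels were close together while the untreated level was higher with Chaer siRNA, and the folds were 6.55 (6.44 to 6.66) and 4.99 (4.92 to 5.07). Member 8, with a gene model of 1745 bp, had the highest mean level of the 84, at 923 and 3906 RPKM with control siRNA and 1076 and 4224 RPKM with Chaer siRNA. Its folds were 4.23 (4.19 to 4.27) and 3.93 (3.90 to 3.96). This 1 feature took 21.1% of the members' reads in the untreated control siRNA library and 27.7% in the treated one. The next by mean level after members 8 and 3 were members 73 and 18. Member 73, with a gene model of 6332 bp, had a smaller ratio, going from 169 to 374 RPKM and from 218 to 459 RPKM, while member 18 went from 123 to 398 RPKM and from 166 to 504 RPKM. These 4 features together held 44.6% to 53.0% of the members' reads in a library.

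Member 6 had the longest gene model of the 84, at 12044 bp, and levels that hardly differed between the siRNAs. It went from 6.52 to 31.4 RPKM with control siRNA and from 5.84 to 30.6 RPKM with Chaer siRNA. The folds were 4.82 (4.63 to 5.01) and 5.24 (5.03 to 5.46).

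The largest fold of RPKM under each siRNA belonged to a weakly expressed member, whose log2 ratio is held down by the added 1. Member 14 had 38 reads, or 0.264 RPKM, with control siRNA and 3.41 RPKM with phenylephrine, a fold of 12.9 (9.26 to 18.5). With Chaer siRNA it went from 1.04 to 5.66 RPKM, a fold of 5.42 (4.58 to 6.44), so that its fold was smaller from a higher untreated level. Member 9 went from 0.481 to 4.78 RPKM and from 0.685 to 8.44 RPKM, with folds of 9.93 (6.67 to 15.4) and 12.3 (8.99 to 17.3). These intervals overlap, and its untreated levels rest on 27 and 42 reads. Members 10 and 16 were also weakly expressed. Member 10 had folds of 5.97 (4.65 to 7.76) and 8.38 (6.29 to 11.4), and member 16 of 5.52 (3.61 to 8.75) and 6.38 (3.97 to 10.8).

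**Figure D1:**
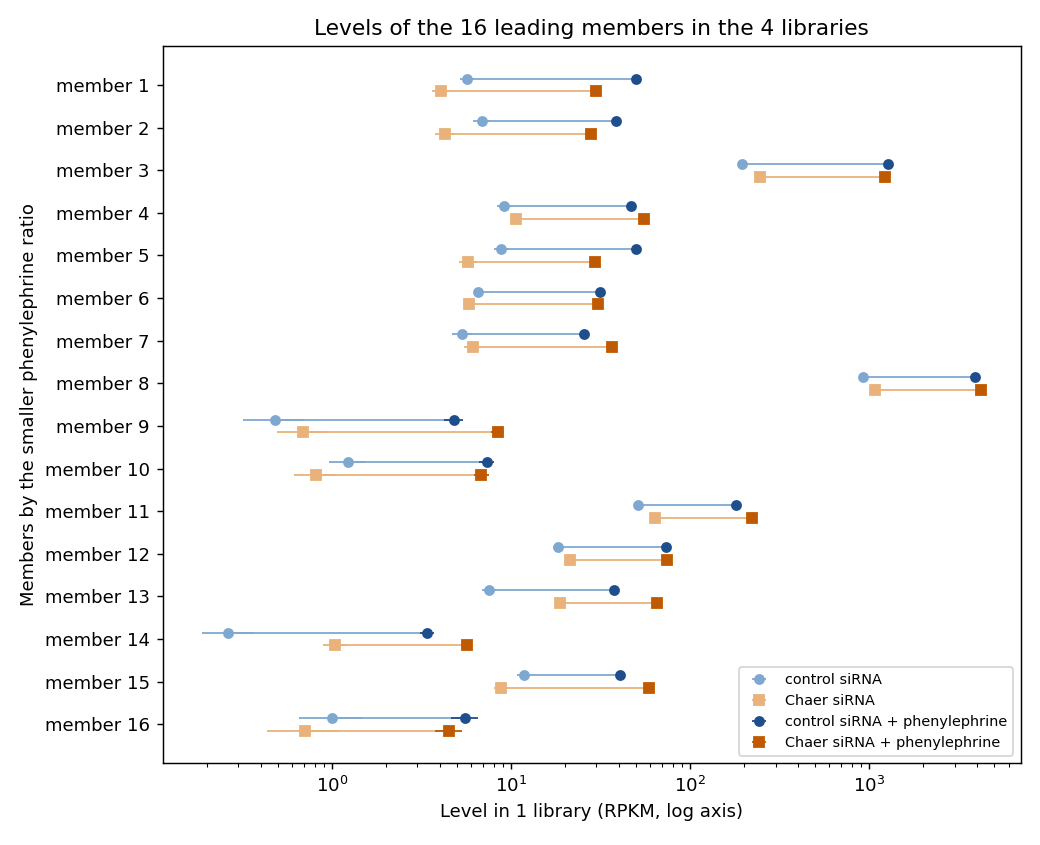
Level of members 1 to 16 in each of the 4 libraries, in RPKM on a log axis, with control siRNA as circles and Chaer siRNA as squares, and lines joining the untreated (pale) to the treated (dark) library of the same siRNA. Bars are 95% Poisson counting intervals, and member 8 spans 923 to 4224 RPKM while member 14 starts at 0.264 RPKM.

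Of the other leading members, 11, 12, 13 and 15 had mean levels of 128.9, 46.7, 32.3 and 30.0 RPKM. Member 11 had nearly equal folds of 3.52 (3.34 to 3.71) and 3.44 (3.29 to 3.60), at levels of 51.2 to 180.2 RPKM and 64.0 to 220.4 RPKM. Member 12 reached 73.2 and 74.1 RPKM with phenylephrine, from 18.2 and 21.4 RPKM without. Member 13 stood out by its untreated levels, 7.53 RPKM with control siRNA and 18.8 RPKM with Chaer siRNA. Its treated levels were 37.7 and 65.1 RPKM, so Chaer siRNA was higher in both conditions, and its mean Chaer siRNA log2 ratio of 0.99 lay just inside the bound of 1.

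Most members were between 2-fold and 3-fold higher in their smaller ratio. On the scale of (RPKM + 1), the smaller ratio was at least 4-fold for 7 members, between 3-fold and 4-fold for 13 and between 2-fold and 3-fold for 64. The median log2 ratio was 1.47 with control siRNA and 1.35 with Chaer siRNA, beside -0.07 and -0.10 over all 12226 features. Without the added 1, the median folds of RPKM were 3.12 and 2.96. Past 2-fold higher were 1.12% of all features with control siRNA, 1.10% with Chaer siRNA and 0.736% (90 features) with both. Since the rule used these ratios, they describe the members and support nothing about them.

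Members 17 to 50 had folds of RPKM from 2.39 to 6.45 with control siRNA and from 2.42 to 5.34 with Chaer siRNA. Their median levels were 13.5 RPKM (control siRNA), 20.8 RPKM (Chaer siRNA), 46.2 RPKM (control siRNA, phenylephrine) and 51.3 RPKM (Chaer siRNA, phenylephrine). Members 51 to 84 had folds from 2.09 to 6.03 and from 2.02 to 5.29, with median levels of 9.50, 8.97, 25.6 and 21.6 RPKM in that order. In both stretches the members ranged widely in level, with means over the 4 libraries of 1.42 to 298 RPKM and 1.17 to 305 RPKM.

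In all 84 members both treated libraries were above both untreated ones, across the siRNAs as well as within each, which was so for 13.6% of all features. The rule fixes this order by bounding both phenylephrine ratios and the mean siRNA ratio, so the order is not a finding about the members. The lowest library was control siRNA in 46 members and Chaer siRNA in 38. The highest was Chaer siRNA with phenylephrine in 46 and control siRNA with phenylephrine in 38. With treated above untreated, these counts only restate the signs of the siRNA ratios without and with phenylephrine, given below. Over all features, the lowest was control siRNA in 2274, Chaer siRNA in 2607 and a treated library in the rest. The highest was Chaer siRNA with phenylephrine in 2022, control siRNA with phenylephrine in 2421 and an untreated library in the rest. The fewest reads behind a member in a library were 13. As a description of precision, on folds that the rule chose to be high, the lower counting bound of the fold of RPKM was 2 or less for 4 members under at least 1 siRNA.

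**Figure D2:**
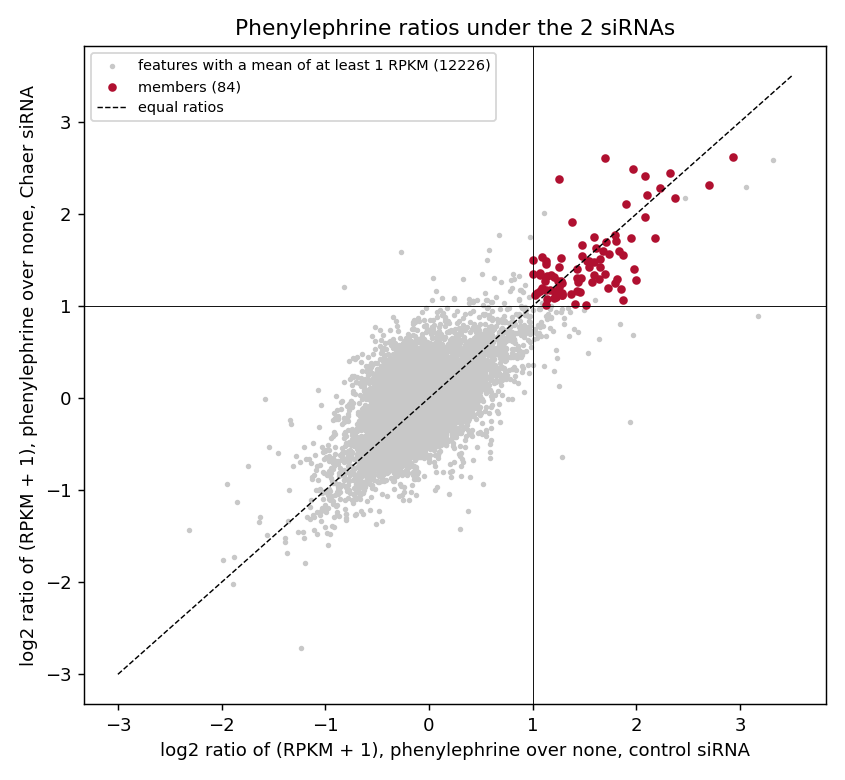
Phenylephrine log2 ratio of (RPKM + 1) under control siRNA (x axis) and under Chaer siRNA (y axis), with the 84 members in red, all 12226 features that average 1 RPKM or more in grey, the 2-fold bounds as thin lines and equal ratios as a dashed line. Members lie on both sides of the dashed line, with medians of 1.47 and 1.35, and the 6 grey points past both bounds are features that the rule left out.

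Around the bounds the values ran on without a gap. The last members inside were member 82 (log2 ratios of 1.13 and 1.01 under control and Chaer siRNA), member 83 (1.00 and 1.34) and member 84, whose smaller ratio was 1.00. The nearest features outside had ratios of 1.18 and 0.995, of 1.34 and 0.98, and of 0.98 and 1.75. The second of these was abundant, going from 351 to 891 RPKM with control siRNA and from 486 to 958 RPKM with Chaer siRNA. Of the 90 features past 2-fold under both siRNAs, 3 were left out by identifier, with smaller log2 ratios of 2.17 to 2.58, and 3 by the bound on the siRNA ratio, with means of -1.26, -1.13 and 1.45.

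The 90 features were 65.7% of those raised 2-fold with control siRNA and 67.2% of those raised 2-fold with Chaer siRNA. The rest had these values under the other siRNA. Of the 47 raised 2-fold with control siRNA alone, 38 were at least 1.5-fold higher with Chaer siRNA, at a median log2 ratio of 0.77, where 4.27% of all features were past 1.5-fold. Of the 44 raised 2-fold with Chaer siRNA alone, 22 were at least 1.5-fold higher with control siRNA, at a median log2 ratio of 0.59, where 3.54% of all features were.

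The median of the members' mean level was 23.0 RPKM (quartiles 8.26 and 64.7), beside 11.3 RPKM (4.53 and 27.1) for all 12226. The rule chose the members on their treated and untreated levels, so it favours high treated and low untreated values. The treated levels add to the mean level. In the untreated libraries the members' medians were the lower, at 8.99 RPKM with control siRNA and 9.72 RPKM with Chaer siRNA, beside 11.5 RPKM for all features in each. With phenylephrine and control siRNA the medians were 38.4 and 10.8 RPKM. Members made up 0.480% of features with a mean of 1 to 5 RPKM, 0.474% from 5 to 20 RPKM, 0.932% from 20 to 100 RPKM and 1.96% from 100 RPKM up, classes that use the same mean and so favour raised features at the top. From the lowest class to the highest, the median folds of RPKM were 4.80, 2.97, 3.07 and 2.45 with control siRNA. With Chaer siRNA they were 4.23, 2.93, 2.70 and 2.96. Weak members needed a larger fold to pass the added 1.

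In median length the members resembled other features. Their median gene model was 1935 bp (quartiles 1442 and 2810 bp), beside 1953 bp (1238 and 3068 bp) for all 12226 features. Short models were fewer in share, since 7 of 84 members (8.33%) were under 1000 bp against 17.8% of all features. Over 5000 bp were 5 members (5.95%) and 7.20% of all features. The 31 features lowered at least 2-fold under both siRNAs, with the same bound on the siRNA ratio, had a median gene model of 2343 bp and a median mean level of 9.67 RPKM. Their median phenylephrine log2 ratios of (RPKM + 1) were -1.11 and -1.33. On RPKM without the added 1, their median folds were 0.383 and 0.298, or 2.61 and 3.36 times lower. The members' median folds were 3.12 and 2.96, and the 2-fold bound shapes the medians of both sets.

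The phenylephrine ratios of the members also differed between the siRNAs, within limits that the choice of members sets. Both ratios had to be at least 2-fold, which left out 47 features past 2-fold with control siRNA alone and 44 with Chaer siRNA alone, and so narrows the spread. The values over all features stand beside those of the members as a description, and likeness was not tested. The difference of the log2 ratios, Chaer siRNA minus control siRNA, was below 0 in 50 of 84 members (59.5%) and in 58.5% of all features. Its median was -0.06 in both, and its SD was 0.32 over the members and 0.31 over all features. Within 0.5 of 0 were 73 of 84 members (86.9%) and 90.2% of all features. On this scale a difference of at least 2-fold was reached by 1 member, where 0.319% of all features were past 2-fold higher, and by 0 members in the lower direction, where the share was 0.221%. No replicate exists, so a spread between cultures cannot be set beside these differences.

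By counting error alone, many of these differences had intervals off 0, among the members as among all features. On the log2 folds of RPKM without the added 1, the counting interval lay below 0 in 34 members (40.5%), above 0 in 12 (14.3%) and held 0 in 38. Of 12223 features with reads in every library it lay below 0 in 32.3% and above 0 in 21.3%. Deeply counted members can differ by little and still have an interval off 0, as member 8 does with a difference of -0.11 (-0.13 to -0.09).

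On the scale of (RPKM + 1), the members whose ratio was smallest under Chaer siRNA relative to control siRNA were 77, 40, 53 and 31. On folds of RPKM without the added 1, weakly expressed member 14 came first, at a log2 difference of -1.25 (-1.79 to -0.72), against -0.10 with the added 1, and members 40, 77, 53 and 31 followed. Member 77, with a gene model of 1681 bp, went from 24.2 to 91.1 RPKM with control siRNA and from 39.6 to 83.8 RPKM with Chaer siRNA, so that its untreated level was higher and its treated level lower with Chaer siRNA. Its folds were 3.77 (3.56 to 3.99) and 2.12 (2.02 to 2.22), and the log2 difference on (RPKM + 1) was -0.81. Member 40 went from 2.11 to 11.4 RPKM and from 3.94 to 11.1 RPKM, with folds of 5.39 (4.75 to 6.14) and 2.81 (2.55 to 3.09). Its treated levels were nearly equal and the untreated ones set it apart. Member 31 was similar, at 15.1 and 25.7 RPKM untreated and 62.2 and 69.5 RPKM treated, with a log2 difference of -0.57. Member 53 showed the reverse layout. Its untreated levels of 11.9 and 11.2 RPKM were close, while with phenylephrine it reached 45.8 RPKM with control siRNA and 26.9 RPKM with Chaer siRNA, for folds of 3.83 (3.65 to 4.02) and 2.40 (2.28 to 2.52).

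On the scale of (RPKM + 1), the members whose ratio was largest under Chaer siRNA relative to control siRNA were 44, 15, 33 and 9. Without the added 1, member 84 came after 44 and 15, at 0.71 (0.43 to 0.99). Member 44, with a gene model of 2892 bp, was the 1 member past 2-fold on the scale of (RPKM + 1). It went from 95.5 to 229.6 RPKM with control siRNA and from 49.2 to 260.4 RPKM with Chaer siRNA, so that the siRNAs differed mainly before treatment. The folds were 2.41 (2.35 to 2.46) and 5.29 (5.14 to 5.44), a log2 difference of 1.12. Member 15 went from 11.8 to 40.6 RPKM and from 8.80 to 58.8 RPKM, with folds of 3.45 (3.12 to 3.81) and 6.68 (6.03 to 7.41) and a difference of 0.91. Here both the untreated and the treated level contributed. Member 33 went from 48.9 to 129 RPKM and from 43.1 to 165 RPKM, a difference of 0.53, and member 9, described above, had 0.52 with a counting interval that holds 0 on folds without the added 1.

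**Figure D3:**
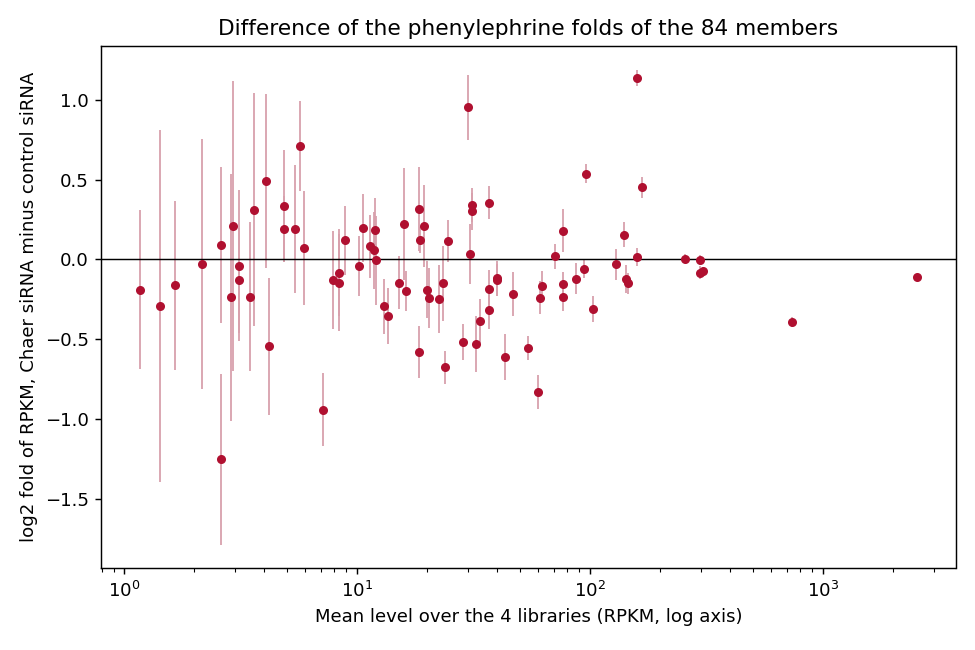
Difference of the log2 folds of RPKM with phenylephrine, Chaer siRNA minus control siRNA (y axis), against the mean level in RPKM on a log axis, for the 84 members. Bars are 95% counting intervals without replicate error, which lie below 0 in 34 members and above 0 in 12.

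The members' levels with Chaer and control siRNA lay within a limited range of each other, as the bound on the mean log2 ratio required. Without phenylephrine the log2 ratios of Chaer over control siRNA ran from -0.94 to 1.22 with a median of 0.11, beside a median of 0.02 over all features. With phenylephrine they ran from -1.03 to 0.89 with a median of 0.09, beside -0.03. Ratios were above 0 in 46 members without and in 46 with phenylephrine, where 52.1% and 45.8% of all features were. Those 46 are 54.8% of the members.

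Past 2-fold higher with Chaer siRNA were 2 members without phenylephrine, where 1.02% of all features were past it, and 0 with it, where 0.998% were. Past 2-fold lower were 0 members without phenylephrine, against 1.11%, and 1 with it, against 0.851%. The 2 were member 13, described above, and member 39, and the 1 was member 52; members 39 and 52 are named because the counts are small. Member 39 went from 18.0 to 65.7 RPKM with control siRNA and from 38.4 to 95.5 RPKM with Chaer siRNA. Member 52 was weak, at 1.34 and 6.76 RPKM with control siRNA and 0.654 and 2.79 RPKM with Chaer siRNA. The bound on the mean ratio limits how many members can be past 2-fold.

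The siRNA ratios without and with phenylephrine come from separate libraries, but they differ by exactly the difference of the phenylephrine ratios. The rule limits that difference and the mean siRNA ratio. How often the signs agree among the members therefore depends on their choice and is a description only. Both siRNA ratios were above 0 in 36 members (42.9%) and both below 0 in 28 (33.3%), beside 32.1% and 34.3% of all features. In 10 members the ratio was above 0 without and below 0 with phenylephrine, beside 19.9% of all features, and in 10 it was the other way round, beside 13.6%. Together these are 23.8% of members and 33.6% of all features. In 8 of the 20 (9.52% of members) both counting intervals excluded equal levels, beside 9.69% of 12223 features. By counting error, Chaer siRNA gave the higher RPKM in 40 members (47.6%) and the lower in 24 (28.6%) without phenylephrine. With it, Chaer siRNA gave the higher in 38 (45.2%) and the lower in 27 (32.1%). Of 12223 features the shares were 35.6% higher and 31.2% lower without phenylephrine, and 27.8% higher and 34.5% lower with it.

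**Figure D4:**
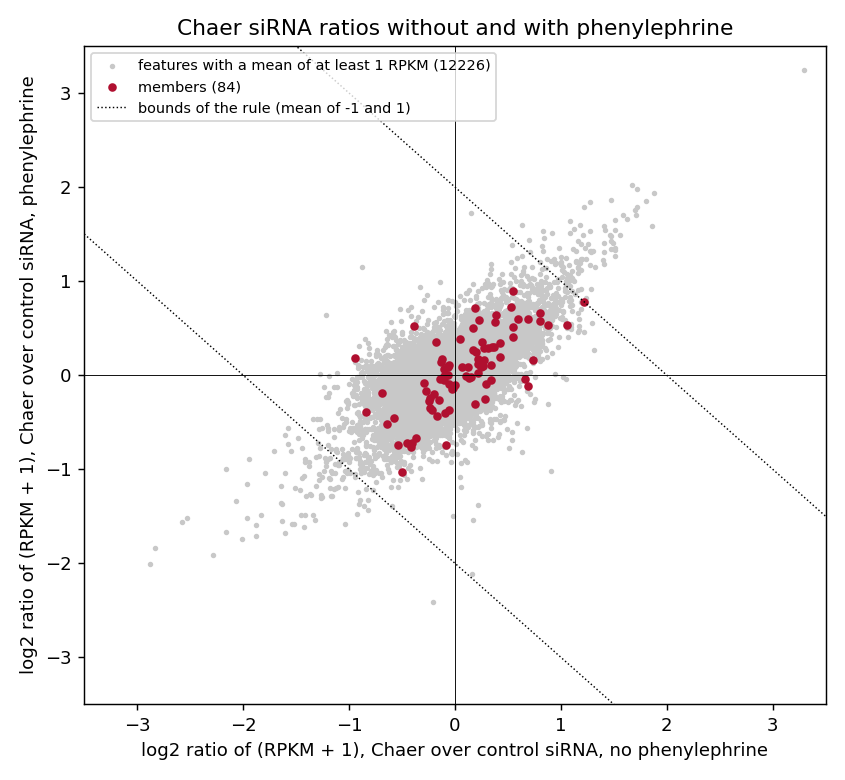
Log2 ratio of (RPKM + 1), Chaer siRNA over control siRNA, without phenylephrine (x axis) and with it (y axis), with the 84 members in red, all 12226 features that average 1 RPKM or more in grey, and the rule's bounds on the mean of both ratios as dotted lines. Members spread around 0, from -0.94 to 1.22 on the x axis and from -1.03 to 0.89 on the y axis, and member 13 lies at the upper bound.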

How the data were processed

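Per the submitters' processing notes, reads of stranded total RNA libraries were aligned with TopHat2 to rn5. Counting tool, annotation, filters and strand use: not given in the sources used here, so overlapping or near-identical genes cannot be told apart. The authors deposited a read count and an RPKM value per feature for 4 libraries, 1 for each group. Counts divided by RPKM gave whole gene-model lengths and read totals, of which 3.88% to 4.29% were outside listed features. The RefSeq gene table (GRCr8) pairs 0 identifiers with symbols, so the 12 gene lists and the promoter motifs of the plan were not applied, and the plan's limit of 2 printed identifiers holds. Ratios are log2 of (RPKM + 1), for a mean of at least 1 RPKM, with Python 3.11.15, NumPy 2.4.6, pandas 2.3.3 and SciPy 1.17.1. Fold intervals are exact binomial, level intervals exact Poisson, and intervals of differences a normal approximation on log counts (95%). The rule was checked on simulated Poisson counts, which hold counting error only and no variation between cultures. Alternatives were other pseudocounts, filters, fold bounds and scalings (edgeR 4.0.16 TMM, DESeq2 1.42.0 median ratio, and totals without the 20 features with most reads). Members described singly were those with the 16 largest smaller ratios, the 4 highest mean levels, the 4 largest and 4 smallest differences and the 3 nearest each side of the bound. The members, lists and rules were chosen with earlier results of these data known.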

Additional observations from a re-analysis of the deposited data

Results flagged for a closer look

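In 20 of the 84 members the Chaer siRNA ratio had opposite signs without and with phenylephrine (23.8%, beside 33.6% of all features), and in 8 of these both counting intervals excluded equal levels (9.52%, beside 9.69%). Each condition is 1 library per siRNA, the rule limits which siRNA ratios a member can have, and the difference between conditions was not tested. Members 3, 47, 77 and 81 were higher with Chaer siRNA without phenylephrine and lower with it, with log2 differences of -0.39, -0.54, -0.81 and -0.50. For member 77 the fold of Chaer over control siRNA was 1.64 (1.54 to 1.75) without phenylephrine and 0.920 (0.887 to 0.955) with it. Members 15, 33, 44 and 74 were lower with Chaer siRNA without phenylephrine and higher with it, with log2 differences of 0.91, 0.53, 1.12 and 0.29. For member 44 the fold was 0.516 (0.499 to 0.533) without and 1.13 (1.12 to 1.15) with phenylephrine. Members 47, 74 and 81 fall outside the rule for members described singly and were chosen after their values were seen. In the other 12 members an interval held equal levels, and the log2 differences ran from -0.71 to 0.26.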

How the results depend on the processing

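No paired analysis was possible because there was 1 library for each group; leaving out a library would remove a group. The count of 84 members fell to 44 with a pseudocount of 5 and was 106 with 0.1, of which 80 were among the 84. It was 108 under TMM scaling, 99 under median-ratio scaling, 80 without the 20 features with most reads in the scaling, 68 with a mean of at least 5 RPKM and 85 with no filter. It was 20 with a bound of 3-fold and 257 with 1.5-fold. The members' median log2 ratios of 1.47 and 1.35 became 1.63 and 1.55 with a pseudocount of 0.1 and 1.16 and 1.06 with 5, and under TMM scaling the Chaer siRNA median was 1.45. TMM scaling also moved the Chaer siRNA median of all features from -0.10 to 0.004. The members' median difference between siRNAs stayed below 0 under every pseudocount and scaling run, from -0.09 to -0.01. So did the median over all features, from -0.07 to -0.004. The members' median minus that of all features ran from -0.015 to 0.008 and changed sign between runs. In these runs 43 to 50 of the 84 members were below 0, beside 50.6% to 58.7% of all features. The sign of the difference changed for 7 of the 84 members without the 20 features in the scaling, 5 under median-ratio scaling, 0 under TMM, 6 with a pseudocount of 5 and 4 with 0.1. Among members described singly it changed for member 16 (0.16 with a pseudocount of 0.1, 0.0152 with median-ratio scaling, 0.0104 without the 20 features), member 2 (-0.0539 with a pseudocount of 5), member 14 (0.14 with a pseudocount of 5, from -0.10, and -0.94 with 0.1) and member 11 (0.0110 with median-ratio scaling, 0.0385 without the 20 features). Depth limits the weakest members, whose untreated levels rest on as few as 13 reads.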
